A study of Brassica napus with 6 samples.

Results

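In cotyledons of oilseed rape (Brassica napus), 82 of 100919 annotated genes were read clearly in every wild-type (WT) library and hardly at all in any library of a bnsdp1 mutant. They were chosen by their raw counts: at most 2 reads in each of the 3 bnsdp1 libraries and at least 20 reads in each of the 3 WT libraries. They made up 0.168% of the 48843 genes that reached 20 reads in every WT library. The libraries of the mutant, which is a single line (bnsdp1#CR88), and of WT were made from poly(A) RNA of cotyledons. Plants of both genotypes were raised on half-strength MS medium with 1% sucrose, for 4 days in darkness followed by 6 h in normal conditions. The labels do not say whether replicates of a genotype came from different plants. If they did not, the p-values reflect technical spread alone.

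SDP1 (SUGAR-DEPENDENT1) is known from Arabidopsis as the lipase that starts the breakdown of oil stored in the cotyledons, which feeds the seedling until it can photosynthesise. Oilseed rape is an allotetraploid that carries an A and a C subgenome, so most genes have a close relative on the other subgenome, and one copy of such a pair can be silent while the other is active. No gene names come with the identifiers, and 0 of them matched a RefSeq table of 123214 genes of the Da-Ae assembly. The members are therefore described by level, length and place rather than by function. The targeted SDP1 copies could not be looked up either, so the mutant label was not checked at its target.

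Total counts were between 48288744 and 54965583 in the bnsdp1 libraries and between 51404121 and 65550668 in the WT libraries. Low counts moved in steps of 2. In bnsdp1 replicate 1, 4361 genes had exactly 2 reads and 545 had exactly 1, and in WT replicate 1 the numbers were 4201 and 569. Even numbers made up 76.3% to 79.5% of all values from 1 to 50 reads in the 6 libraries. A value of 2 reads in the mutant is thus mostly the smallest value that the counting gave, and counting intervals below treat 2 reads as 1 event.

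Over all 82 members the mutant libraries held 58, 62 and 85 reads, against 6366, 6293 and 8456 reads in the WT libraries. In CPM (the count times 1000000 over the total count of the library), their summed level was 1.20, 1.13 and 1.56 in the mutant, against 112, 96.0 and 164.5 in WT. Of the 246 mutant values, 140 were 0, 7 were 1 and 99 were 2. No mutant library read all members: 52, 50 and 38 of them had no read in bnsdp1 replicates 1, 2 and 3. In 18 members all mutant libraries were at 0, 31 members had a read in 1 mutant library, 24 in 2 libraries and 9 in all 3. These values are what chose the members, so they are given as a description with no test. All 82 passed the filter on low counts that left 56385 genes for the edgeR fit, which they did through their WT reads. Their own calls in that fit were fixed by the rule and are not given as a result.

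**Figure D1:**
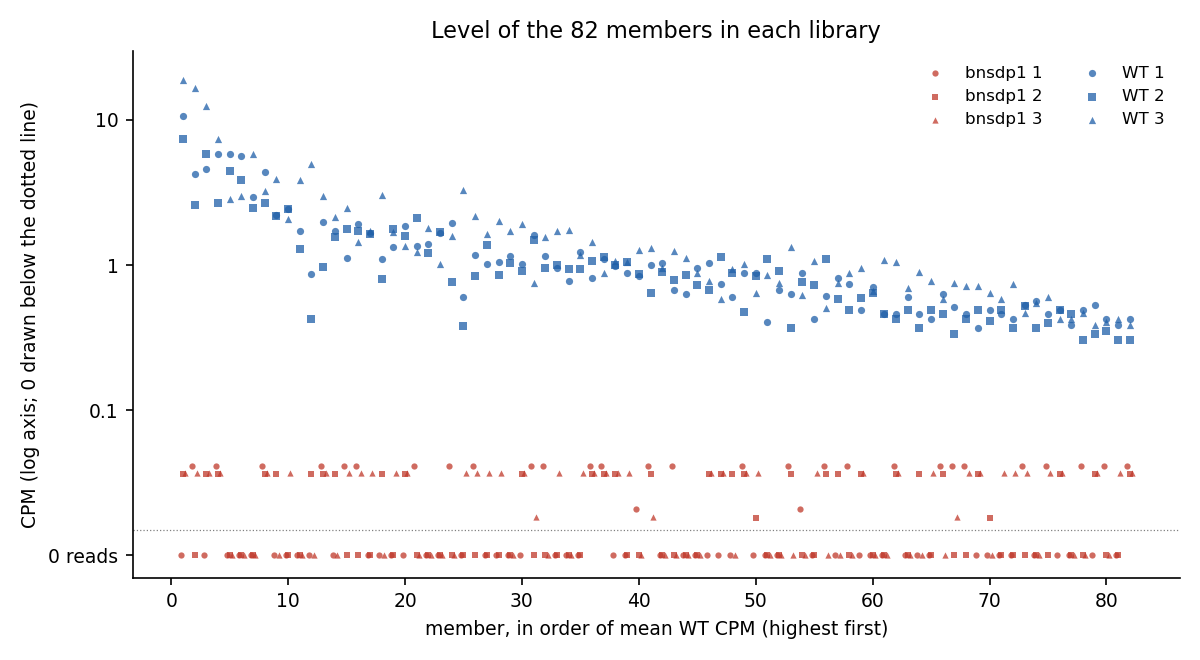
Level of each of the 82 members in the 3 bnsdp1 libraries (red) and the 3 WT libraries (blue), in CPM on a log axis, with members in order of their mean WT level and values of 0 drawn below the dotted line. WT means range from 0.372 to 12.3 CPM, while mutant values stay at 0, 1 or 2 reads, which the rule fixed.

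Most members were weakly expressed in WT. Their mean WT level ranged from 0.372 to 12.3 CPM with a median of 0.973 CPM, and 44 of the 82 lay under 1 CPM, 26 between 1 and 2 CPM, 8 between 2 and 5 CPM and 4 above 5 CPM. The median over all 48843 genes that met the WT limit (20 reads or more in every WT library) was 5.55 CPM. Per kilobase of gene span, the median WT level was 0.737 CPM per kb for the members and 2.88 CPM per kb for those genes. The low levels follow in part from the rule, since a limit of 2 reads asks for a deeper fall the higher a gene is in WT. Of genes under 1 CPM in WT, 0.784% were members, against 0.386% of those at 1 to 2 CPM and 0.00596% of those at 10 CPM or more. With a limit relative to WT instead (a mutant mean under 5% of the WT mean), those shares were 0.944%, 0.906% and 0.762%, which differ far less between levels.

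The member with the highest WT level was BnaC09G0050100ZS (chromosome C09, 3223525 to 3224822, plus strand; no source used here names the genome build). It had 0, 2 and 2 reads in bnsdp1 replicates 1, 2 and 3, against 608, 484 and 972 reads in the WT libraries. The mean was 0.0244 ± 0.0211 CPM in bnsdp1 and 12.3 ± 5.93 CPM in WT (SD, n = 3). Its pooled mutant level was 0.214% of the WT level (exact Clopper-Pearson 95% counting interval 0.0258% to 0.774%). WT replicate 3 was the highest of the WT libraries. The next was BnaC08G0508100ZS (chromosome C08, 52083862 to 52088008, minus strand), with 2, 0 and 2 reads in bnsdp1 against 242, 170 and 849 in WT, a mean of 0.0261 ± 0.0226 CPM against 7.79 ± 7.60 CPM (SD, n = 3). Here WT replicate 3 stood 6.37 times above WT replicate 2, so the mean rests largely on that library.

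A member at 25.2 Mb of A04 spans 604 bases and had the highest WT level per length, 12.6 CPM per kb. It had 0, 2 and 2 reads in the mutant, against 262, 380 and 638 reads in WT. A member at 3.75 Mb of A09 had 2 reads in each mutant library, against 330, 175 and 382 reads in WT, or 5.30 ± 2.42 CPM (SD, n = 3). In both, WT replicate 3 was again the highest library. That all WT values lay above those of the mutant was fixed by the rule.

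Next in order of WT level came members without any mutant read. Adjacent members at 34.2 Mb of C07 had no read in any mutant library, against 330, 294 and 146 reads in WT for one and 321, 253 and 155 reads for the other. Their levels were at least 116-fold and at least 110-fold lower in bnsdp1, taking as a floor 3 events (6 reads) over the 3 mutant libraries. Unlike the members above, both were lowest in WT replicate 3. A member at 20.1 Mb of A08 also had no mutant read, against 168, 162 and 301 reads in WT, and was at least 95.4-fold lower. One at 46.7 Mb of A06 had 2 reads in each mutant library, against 248, 176 and 166 in WT. A member at 0.902 Mb of A05 had 0, 2 and 0 reads in the mutant, against 125, 144 and 200 in WT. One at 15.3 Mb of C01 had 0, 0 and 2 mutant reads, against 139, 160 and 106 in WT.

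For the 18 members without any mutant read, the bound on the fall ranged from at least 11.2-fold to at least 116-fold with a median of 24-fold. For the other 64 the pooled mutant level was 0.214% to 10.3% of the WT level, with a median of 1.82%. The depth therefore limits what silent means for the weakest members. The one at 5.05 Mb of A09, with 2 reads in each mutant library against 24, 20 and 20 in WT, had a mutant level of 10.3% of WT with a 95% counting interval from 2.03% to 33.0%.

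The thresholds cut through a continuous range. Just inside were 4 members whose lowest WT library had 20 reads, among them one at 67.1 Mb of C04 with 0, 0 and 2 mutant reads and 22, 20 and 22 WT reads. Just outside on the WT side, 35 genes had at most 2 reads in each mutant library but a lowest WT value of 15 to 19. One such gene on C03 had no mutant read, against 24, 18 and 30 reads in WT. Just outside on the mutant side, 114 genes reached 20 reads in every WT library with a highest mutant value of 3 to 5, and 418 more had one of 6 to 10. The steps of 2 show here too: 98 of the 114 had a highest mutant value of exactly 4.

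The members varied between the WT libraries, and above 1 CPM they varied more than other genes of like level. The ratio of the highest to the lowest WT library had a median of 1.71 over the members, from 1.06 to 11.7, and the SD was 28.2% of the mean in the median member. Under 1 CPM, where few reads make any gene vary, the median ratio of 1.56 was near the 1.5 of the other genes that met the WT limit. At 1 to 2 CPM it was 1.69 for members and 1.41 for the others. At 2 to 5 CPM, with 8 members, it was 1.96 and 1.26. All 4 members above 5 CPM differed more than 2-fold between WT libraries, as did 1.24% of the other genes at 5 to 10 CPM and 0.536% of those at 10 CPM or more. That last class runs up to 9698 CPM while its 1 member lay at 12.3 CPM, so the match in level is loose there. The rule holds the ratio down at low levels, since every WT value had to reach 20 reads.

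A ratio above 2 was found in 29 members, and in 24 of these WT replicate 3 was the highest library. Over all members WT replicate 3 was highest in 48 (58.5%), replicate 1 in 24 and replicate 2 in 10. Among the other genes that met the WT limit it was highest in 49.8%, so it was the most frequent highest library there too. The widest ratio, 11.7, was that of a member at 1.77 Mb of C03 with 0, 2 and 0 reads in the mutant, against 49, 28 and 256 in WT. A member at 1.25 Mb of C06 had 0, 0 and 2 mutant reads, against 34, 25 and 169 in WT, a ratio of 8.62. With BnaC08G0508100ZS these are the members that differed most between WT libraries, and in each of them WT replicate 3 was the high one. At the other end a member at 49.1 Mb of C06 had 0, 0 and 2 mutant reads, against 95, 107 and 89 in WT, which is a ratio of 1.06 after scaling to library size.

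**Figure D2:**
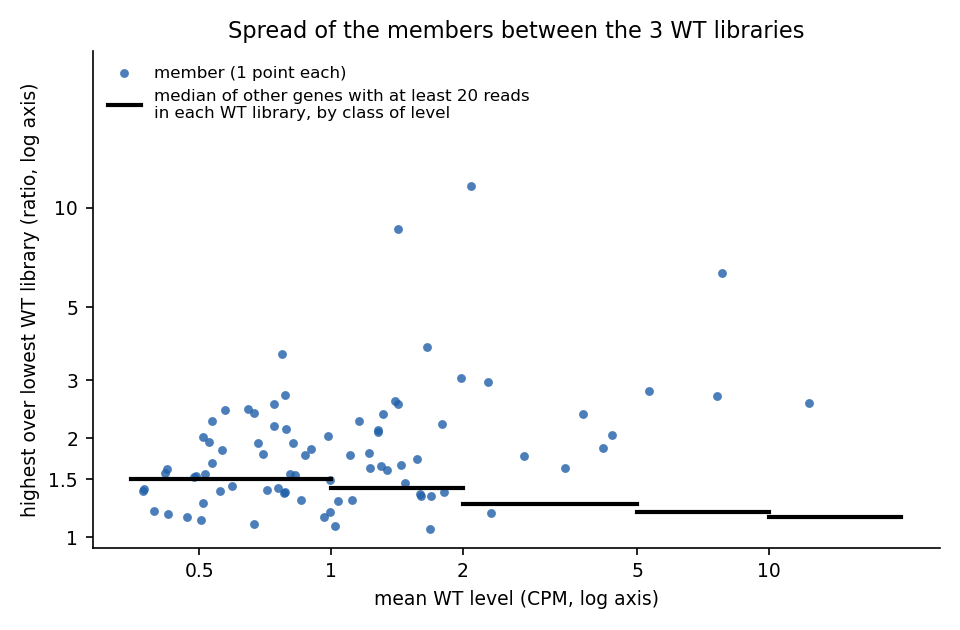
Ratio of the highest to the lowest of the 3 WT libraries (log axis) against mean WT level in CPM (log axis), with 1 point per member and bars for the median of the other genes that met the WT limit. Members under 1 CPM scatter around the bar, at a median of 1.56 against 1.5, and all 4 members above 5 CPM lie over 2.

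The members' spans were compared with sets not matched for level. The median span from gene start to gene end was 1483 bases for members and 1901 bases for all genes that met the WT limit, and 24 members (29.3%) were under 1 kb, against 20.8%. Over all annotated genes the median was 1399 bases and 36.2% were under 1 kb, so the members' median lay between both values. The shortest, at 0.351 Mb of A03, spans 228 bases and had 0, 0 and 2 reads in the mutant, against 24, 24 and 38 in WT. The longest, at 9.58 Mb of A02, spans 16032 bases and had no mutant read, against 80, 80 and 92 reads in WT. The lengths in the files run from gene start to gene end, so they may include introns and are not transcript lengths.

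All members lay on assembled chromosomes, 49 on C and 33 on A chromosomes. The A share of 40.2% compares with 48% of all genes that met the WT limit. Each of the 19 chromosomes held at least 1 member, from 1 on A10 to 8 each on C03, C07 and C09. Relative to such genes on the chromosome the share was between 0.0580% on A10 and 0.290% on C07. Measured from the outermost annotated genes, 10 members (12.2%) lay within 1 Mb of a chromosome end, against 6.06%, and the median distance was 6.48 Mb, against 8.72 Mb. Those 10 include 2 pairs of neighbours, so they are not 10 separate places. Gene density was close to that of the comparison genes, with a median of 141 and 136 other genes within 500 kb on either side. No member overlapped another annotated gene, but few genes do: 1.52% of all genes that met the WT limit.

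In 34 members both neighbouring genes had more than 2 reads in some mutant library. The other 48 lay in an unbroken run of 2 or more genes with at most 2 reads in every mutant library, but 36.2% of all annotated genes were that low. In 13 members another gene of the run exceeded 2 reads in WT, and in 4 another gene of the run was a member. The longest run had 17 genes, around a member at 57.9 Mb of C04 with no mutant read, against 23, 72 and 44 reads in WT. That member was the only gene of its run above 2 reads in any WT library.

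Members came close to each other in 3 places, counting starts within 100 kb, which together hold 6 members. The adjacent members on C07 at 34.2 Mb have 44 bases between them and the same strand, and their WT reads run in parallel (330, 294 and 146 against 321, 253 and 155). With so small a gap 1 transcript may be counted under both. The gene to their left had no read in any library. The gene to their right, 21904 bases away, had 456, 447 and 506 reads in the mutant, against 606, 729 and 662 in WT (log2 fold change -0.33, edgeR adjusted p = 0.0198), so the gene next to the pair was lower but far from silent. The second adjacent pair, at 60.4 Mb of C07, is 3153 bases apart and again on 1 strand. One had 0, 0 and 2 mutant reads, against 60, 56 and 104 in WT, and the other 2, 0 and 2 against 67, 55 and 112. Both were highest in WT replicate 3. The next gene to the right had 102, 154 and 168 reads in the mutant, against 290, 299 and 261 in WT, a log2 difference of -0.83 (edgeR adjusted p = 0.00133).

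The third place, at 0.550 and 0.578 Mb of A01, holds 2 members with starts 28.6 kb apart and 7 genes between them. The first had 0, 2 and 0 mutant reads, against 46, 38 and 39 in WT, and the second had 2, 2 and 0, against 36, 24 and 68. Of the genes between them, 3 were called lower and none higher, while over all tested genes 26.2% were called lower and 25.5% higher. A gene between them without any read was not tested. The 3 called ones kept clear levels in the mutant, for instance 169, 183 and 158 reads against 431, 630 and 508 in WT. Both members lie in a stretch of A01 (0 to 15 Mb) picked from earlier results of these data. Neighbours at a larger distance were found on A07, C06, C07 and C09, where 4 more pairs had starts within 500 kb with 13 to 84 genes between them.

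**Figure D3:**
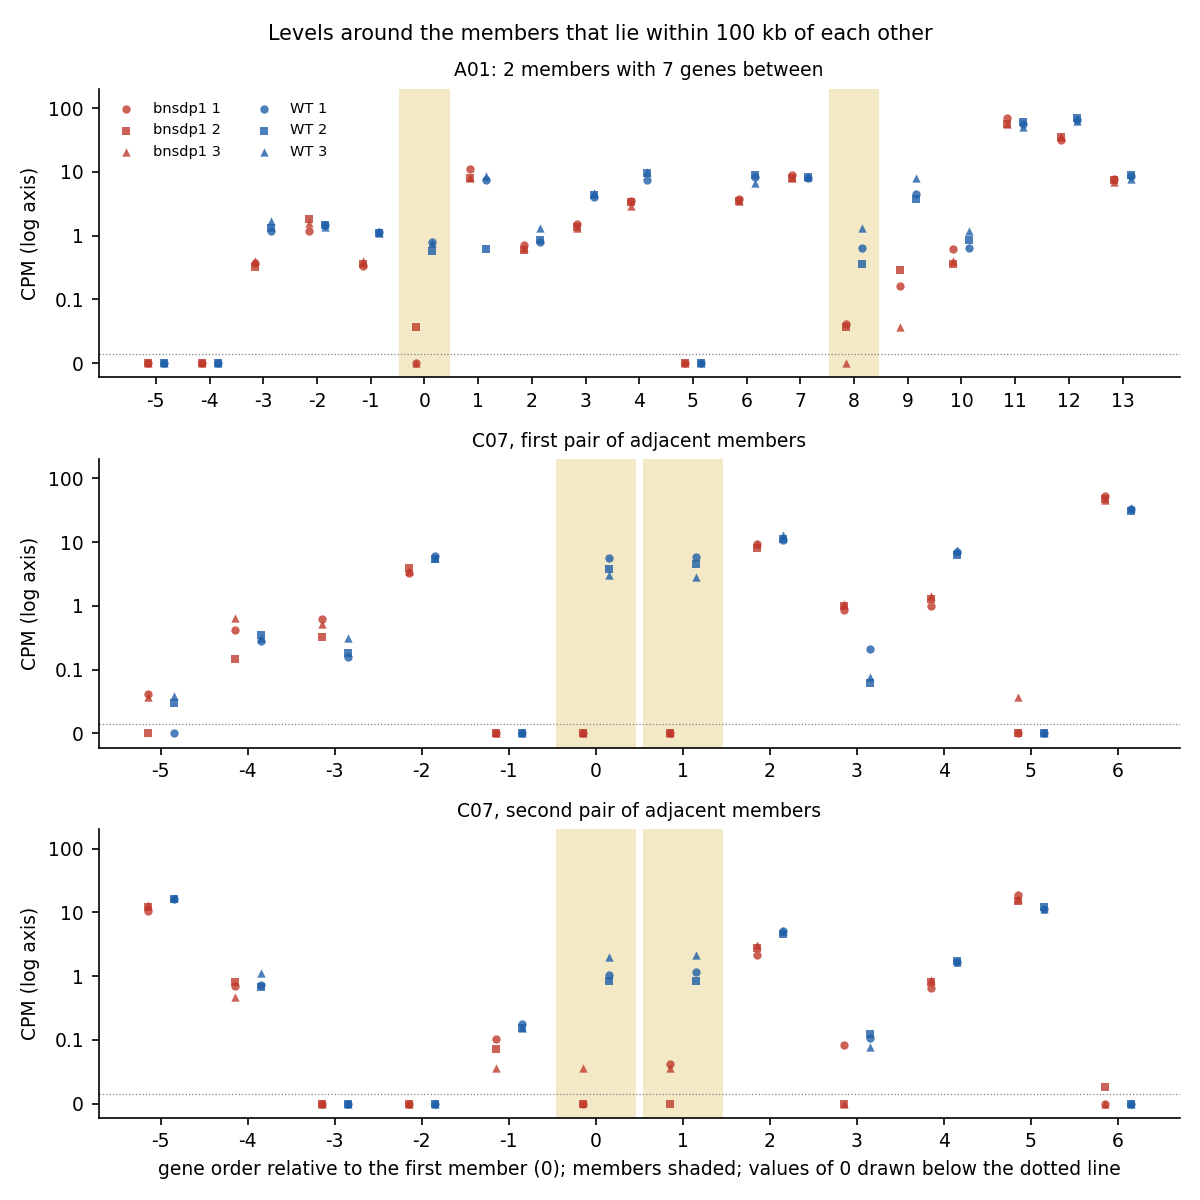
Level of each gene in the 3 bnsdp1 (red, drawn left) and 3 WT (blue, drawn right) libraries in CPM (log axis) around the members that lie within 100 kb of another, in gene order counted from the first member, with members shaded and values of 0 below the dotted line. Beside the first C07 pair the next gene on the right kept 456, 447 and 506 mutant reads, and around the A01 members several genes were lower in the mutant without being near 0.

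Genes next to the members tended to be lower in the mutant too. The nearest annotated gene on either side that was not itself a member gave 160 genes, of which 89 had enough reads to be tested; 33 of the other 71 had no read in any library. Of the 89, 41 (46.1%) were called lower in bnsdp1 and 16 (18%) higher (edgeR, false discovery rate under 0.05). Over all tested genes the shares were 26.2% lower and 25.5% higher. Falls of at least 2-fold were called in 27 flanking genes (30.3%), against 13.0% of all tested genes, and rises of that size in 3 (3.37%), against 9.23%. Their median log2 fold change was -0.33, against 0.02 over all tested genes. No test was made of these shares against the background: neighbours share chromosome regions and are not independent.

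The flanking genes were not low ones by level, with a median of 4.86 CPM in WT against 4.15 CPM over all tested genes. Among those of at least 2 CPM over the 6 libraries, 26 of 57 were called lower (45.6%), against 28.4% of all tested genes of that level. Rises were then called in 28.1% of flanking genes, against 32.7%. Each mutant library showed the shift. On the log2(CPM + 0.5) scale, the median difference of the flanking genes from the mean of the WT libraries, less that of all other tested genes, was -0.33, -0.24 and -0.29 in bnsdp1 replicates 1, 2 and 3. In WT replicates 1, 2 and 3, each set against the other two, it was 0.03, -0.07 and 0.03. The mutant values lay below all WT values.

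The share of lower genes was highest next to a member and lowest at the fifth place, with no even course between. It was 46.1% next to a member, 34% of 97 tested genes at the second place, 36.0% of 100 at the third, 31.1% of 90 at the fourth and 27.3% of 88 at the fifth, where it was near the 26.2% of all tested genes. The share called higher was 18%, 28.9%, 19%, 24.4% and 25% at these places, against 25.5% of all tested genes, so at the second place it was above the background. Falls of at least 2-fold made up 15.5% at the second place, near the 13.0% of all tested genes. Median log2 fold changes from the first to the fifth place were -0.33, -0.20, -0.13, 0.01 and 0.01. On the same strand as the member, 23 of 45 tested nearest genes were called lower and 3 higher, and on the opposite strand 18 of 44 lower and 13 higher. Of 19 tested genes less than 1 kb from the member, 8 were called lower and 6 higher, with a median log2 fold change of -0.15. Of the 70 farther off, 33 were called lower and 10 higher, with a median of -0.35. The closest genes thus leaned less to one side than those farther off, a difference that was not tested.

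**Figure D4:**
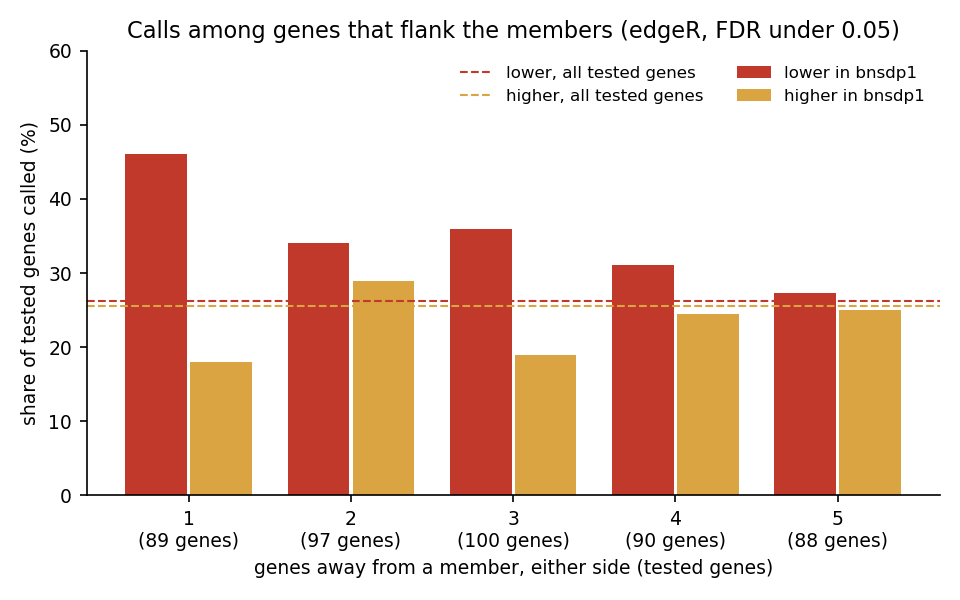
Share of tested genes called lower (red) or higher (yellow) in bnsdp1 among genes at the first to the fifth place from a member, both sides pooled, with dashed lines for all tested genes (26.2% lower, 25.5% higher). The lower share is 46.1% at the first place and 27.3% at the fifth.

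The falls of the flanking genes were of very different size. Of the 89, 59 (66.3%) had a log2 fold change below 0, against 48.8% of all tested genes other than members. At or below -2 were 13 (14.6%, against 4.83%), and at or below -4 were 5 (5.62%, against 0.851%). No flanking gene was raised 4-fold or more.

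**Figure D5:**
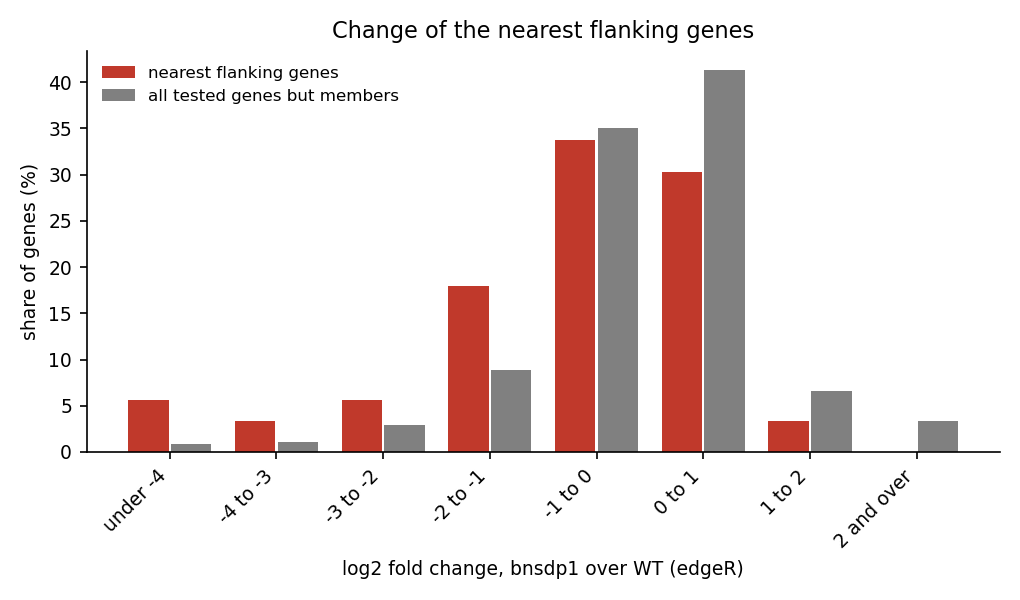
Share of genes by log2 fold change of bnsdp1 over WT, for the 89 tested nearest flanking genes (red) and for all tested genes other than members (grey). Flanking genes are more frequent in each bin from -1 downward, with 5.62% against 0.851% below -4, and less frequent in the bins above 0.

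The flanking gene with the largest fall, 2873 bases from the C03 member at 1.77 Mb and on its strand, missed the rule by a few reads. It had 0, 4 and 3 reads in bnsdp1, against 437, 259 and 1012 in WT, or -7.75 on the log2 scale (SE 0.85, edgeR adjusted p = 3.82e-05). Without WT replicate 3 the value was -6.93 and without bnsdp1 replicate 2 it was -8.34. With limma voom on all libraries it was -7.71 (limma adjusted p = 0.0275), a much weaker call than with edgeR. Its order of the WT libraries, with replicate 3 far above the others and replicate 2 lowest, was that of the member beside it (49, 28 and 256). A like case lay 6924 bases from a member at 0.513 Mb of C01. There the flanking gene had 6, 8 and 8 reads in bnsdp1, against 384, 362 and 872 in WT (log2 fold change -6.05, SE 0.54, edgeR adjusted p = 9.20e-06; -5.41 without WT replicate 3). Its call was also weaker with limma voom (limma adjusted p = 0.00367). The member had 0, 2 and 0 mutant reads, against 63, 53 and 157 in WT. In both places gene and member were on the same strand and were highest in WT replicate 3. That library was the highest in 58.5% of members and in 49.8% of the other genes that met the WT limit.

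Beside the second A01 member, 5047 bases away, a gene had 8, 16 and 2 reads in bnsdp1, against 256, 244 and 410 in WT (log2 fold change -4.96, SE 0.47, edgeR adjusted p = 1.38e-05). Its log2 fold change was -5.73 without bnsdp1 replicate 2 and -4.46 without bnsdp1 replicate 3. Beside the A04 member with the highest level per length, a gene 1668 bases away on the other strand had 8, 8 and 6 reads, against 188, 226 and 292 (log2 fold change -4.82, SE 0.32, edgeR adjusted p = 1.13e-06). Near a member at 1.41 Mb of A09, a gene 381 bases away had 26, 66 and 109 reads, against 1432, 1288 and 1405 (log2 fold change -4.20, SE 0.30, edgeR adjusted p = 2.04e-06). These 3 genes kept some reads in every mutant library. They were picked for the size of their fall, so the distance between their mutant and WT values follows from that choice.

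Other members had flanking genes that rose. BnaA06G0416000ZS (chromosome A06, 46658520 to 46658980, minus strand) lies 1066 bases from the A06 member at 46.7 Mb, on the other strand. It had 371, 382 and 427 reads in bnsdp1, against 164, 164 and 158 in WT, or 7.50 ± 0.481 against 2.82 ± 0.292 CPM (SD, n = 3; log2 fold change 1.45, SE 0.12, edgeR adjusted p = 4.17e-06). BnaC02G0426600ZS (chromosome C02, 52353052 to 52355065, plus strand) lies 6500 bases from a member at 52.4 Mb of C02 with 2, 0 and 1 mutant reads and 29, 22 and 39 WT reads, also on the other strand. It had 858, 1002 and 998 reads, against 559, 539 and 427, or 18.1 ± 0.311 against 8.79 ± 0.911 CPM (SD, n = 3; log2 fold change 1.09, SE 0.10, edgeR adjusted p = 8.32e-06). In both cases the member was nearly unread in the mutant while the level of the gene beside it was raised more than 2-fold.

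Counted by member, 65 of the 82 had at least 1 tested flanking gene. In 31 of these a flanking gene was called lower and none higher, in 9 one was called higher and none lower, in 5 both kinds were present, and in 20 no flanking gene was called. Both members of each adjacent pair on C07 share their flanking genes. The gene called lower beside each pair was thus counted for both of its members. Both flanking genes were tested in 26 members, and both were called lower in 7. Over all tested genes, 26.2% were called lower and 25.5% higher. The same count was not made around other genes, so these numbers have no background of their own.

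The same rule turned round, at least 20 reads in each bnsdp1 library and at most 2 in each WT library, chose 90 genes. The members had a median level of 0.973 CPM in WT, and the 90 genes one of 1.22 CPM in bnsdp1. Of the members 40.2% lay on A chromosomes, against 45.6% of the 90 genes, and the median spans were 1483 and 1189 bases. The flanking genes of the 2 sets leaned in opposite directions. Those of the members were called lower in bnsdp1 in 46.1% and higher in 18%, against 17.6% lower (19 of 108 tested) and 45.4% higher (49 of 108) for those of the 90 genes. The difference between the sets was not tested, and both come from the same 6 libraries.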

How the data were processed

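The values are whole-number read counts for each gene, as the authors deposited them with no normalization. The file headers hold the columns of featureCounts, which the submitters' processing notes name beside fastp and HISAT2. No source used here gives their versions, the genome build, the strand setting or how multi-mapping reads were handled. The stated gene length equalled the full span from start to end in 100% of rows. Reads shared by near-identical A and C copies may be divided or dropped, which makes the level of any one copy uncertain.

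CPM here is the count times 1000000 over the column sum. Genes were tested with edgeR 4.0.16 in R 4.3.3 (filterByExpr, TMM, quasi-likelihood F test, Benjamini-Hochberg adjustment over 56385 genes, no covariate) and called at a false discovery rate under 0.05. SE values were derived from that test, as the absolute log2 fold change over the square root of its F statistic. The code was tested on simulated counts. Flanking genes are the nearest annotated non-members on each side. Counting intervals and floors cover counting error only. No 2 replicates agreed within sampling noise (chi-square per degree of freedom of at least 7.62).

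The members, comparisons and settings were chosen with earlier results of these data known. Printed identifiers are limited to the 2 members with the highest WT level and the 2 flanking genes with the largest rise, as no names are paired. Flanking genes with the 5 largest falls, and single genes at the thresholds, were chosen after their values were seen. Alternatives tried were DESeq2 1.42.0, limma 3.58.1, other thresholds, other flank definitions, a replicate block and single libraries left out.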

Additional observations from a re-analysis of the deposited data

How the results depend on the processing

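The number of members depended on the thresholds. It was 215 with a WT minimum of 10 reads and 33 with one of 50, 18 with no mutant read allowed and 196 with up to 5, 46 with limits in CPM (at least 0.4 in WT, at most 0.04 in bnsdp1), and 399 with a mutant mean under 5% of the WT mean, a setting chosen after seeing the data. Applied to 5 libraries the rule gave 96 to 143 genes, 143 without bnsdp1 replicate 2 and 136 without bnsdp1 replicate 3, as fewer libraries have to pass. Calls over all genes numbered 29152, and 25676 to 29440 in the other fits. The share of flanking genes called lower was 33.9% with no filter on low counts (20.4% of all genes tested), with more genes of few reads tested. It was 66.7% beside the 18 members without mutant reads (10 of 15 genes; 12 called in all). Taking the nearest gene that passed the filter gave 99 called genes of 160 tested (61.9%). All genes within 20 kb gave 159 of 278 (57.2%), as more genes count as flanking. Of all tested genes, 51.7% were called. The shares called lower were 40.0% and 36.3%, against 26.2% of all tested genes. Among settings chosen after seeing the data, members of at least 1 CPM had 30 called flanking genes of 42 tested. Flanking genes of at least 2 CPM were higher in 28.1%, against 32.7% of tested genes of that level. Leaving out single libraries gave 40.4% to 42.7% lower, against 23.1% to 24.3% of tested genes other than members. In these fits 37 to 38 of the 41 lower genes and 12 to 16 of the 16 higher genes kept their call. Members with starts within 500 kb of another numbered 14. The median span of all tested genes was 1790 bases, and the median WT ratio of members was 1.72 after TMM scaling. Deviations from the group means correlated at 0.21, -0.06 and 0.07 between libraries of the same number. Between libraries of different number the values ran from -0.22 to 0.18. They give no clear sign that the numbers pair the libraries, but so few values cannot exclude it. The replicate block gave 28376 called genes, and 56 among the flanking genes, 46.1% lower and 16.9% higher. Of tested genes other than members, 25.4% were lower and 24.8% higher in that fit. Flanking genes outside stretches of A01 (0 to 15 Mb), A07 (26 to 32 Mb) and C06 (44 to 52 Mb), picked from earlier results of these data, were lower in 47.0%. Over all tested genes that share was 26.2%. For the weakest member without a mutant read the depth allows no more than a bound of 11.2-fold on the fall.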

Other observations

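Directly beside the first A01 member, to its right, a gene of 3009 bases had 532, 442 and 430 reads in bnsdp1, against 420, 40 and 438 in WT. WT replicate 2 alone was low there, while the member itself had 38 reads in that library and 46 and 39 in the other WT libraries. The gene was not called (log2 fold change 0.77, edgeR adjusted p = 0.306).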
